A study of Mus musculus with 6 samples.

Results

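Transcripts of the proteasome and of ubiquitin-conjugating enzymes were followed in HL-1 cells, a cardiomyocyte line from mouse atrium, that had been given hyaluronan. The members were all probes of the array whose annotated gene symbol begins with Psma, Psmb, Psmc, Psmd, Psme or Ube2, with 1 Psmb gene left out by the rule. This gave 107 probes of 68 genes, among 25697 probes of 16593 genes on the whole array. They comprised 16 genes of the proteasome core (Psma and Psmb, 23 probes), 19 genes of its cap (Psmc and Psmd, 30 probes), 4 activator genes (Psme, 6 probes) and 27 Ube2 genes (45 probes). A further 2 genes, Psmc3ip and Psme3ip1 (3 probes), share the prefix only. They encode interaction partners and not subunits, and none of their probes was detected on any array.

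The proteasome is the cell's main machine for the controlled breakdown of proteins. Its barrel-shaped core has outer rings of alpha subunits (Psma), which form the gate, around inner rings of beta subunits (Psmb), of which Psmb5, Psmb6 and Psmb7 carry the constitutive cutting sites and Psmb9 and Psmb10 are inducible replacements. The cap binds ubiquitin-tagged proteins, unfolds them with a ring of ATPases (Psmc) and removes the tag, with scaffold, receptor and deubiquitinating subunits among the Psmd genes, while the Psme activators open the gate without ATP. Substrates are tagged by a relay in which an activating enzyme (E1) passes ubiquitin to a conjugating enzyme (E2, mostly Ube2 genes), which acts with a ligase (E3). Some Ube2 enzymes carry a ubiquitin-like protein in place of ubiquitin. In heart muscle this system turns over contractile proteins and removes damaged ones.

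Cells in Claycomb medium received hyaluronan, an unbranched sugar polymer of the extracellular matrix, for 24 h. The o-HA group was given chains of 6 sugars at 50 µg/mL, the n-HA group was given chains of 1000 kDa at 10 µg/mL, and the untreated group received none. Each group was represented by 2 arrays of 1 MouseRef-8 beadchip. The doses of the 2 hyaluronans differed, so their values are set side by side and were not tested against each other. The question behind the comparisons was whether added hyaluronan changes gene expression in cardiomyocytes.

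All groups were the same cell line, and no source states whether a group's arrays came from independent cultures. P-values therefore measure only how far these samples spread, which may be technical. Each group occupied its own neighbouring places on the chip, so place and group cannot be told apart. In bulk RNA, fewer cells that express a gene and less of its RNA per cell cannot be told apart either. Of 14 cardiomyocyte marker genes with a probe, 11 were detected on both untreated arrays, while Gata4, Pln and Ryr2 were detected on 0 arrays. Of 7 fibroblast marker genes 6 were detected on 0 arrays, and Col3a1 was detected on 1. Of smooth muscle, endothelial and leukocyte markers, Acta2, Tagln, Tek and Cd3e were tested, while Myh11, Cnn1, Cdh5, Pecam1, Itgam, Cd79a and Ptprc were detected on 0 arrays. The median difference of the cardiomyocyte marker probes from untreated cells was -0.27 with o-HA (4 of 14 above 0), and with n-HA it was 0.18 (8 of 14 above 0), and that of the Acta2 and Tagln probes was -0.54 (0 of 5 above 0) and -0.69 (2 of 5 above 0). Their part in the results was not tested. The n-HA arrays were dimmer, with mean bead intensities of 110.1 and 93.3, against 125.1 and 131.8 for o-HA and 140.9 and 121.6 for untreated cells. They also detected fewer member probes, 36 and 35 of 107, against 38 and 41 with o-HA and 42 and 42 in untreated cells. n-HA replicate 1 stood apart, with correlations of 0.881 to 0.911 with the other arrays over all probes, whereas the other 5 arrays correlated with each other at 0.968 to 0.987. Over the tested members the SD of the difference between replicates was 0.25 (log2) for o-HA, 0.99 for n-HA and 0.24 for untreated cells, and the calls with n-HA are therefore also given without its replicate 1.

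HL-1 cells gave a detectable signal for most of the core and for a minority of the cap. A probe was tested if its detection p-value, taken against negative control beads, was under 0.05 on at least 2 of the 6 arrays. This held for 46 member probes of 35 genes, 43.0% of the member probes, against 24.1% of all probes on the array. By class, 15 of 23 core probes, 9 of 30 cap probes, 3 of 6 activator probes and 19 of 45 Ube2 probes were tested. On all 6 arrays 13 core, 6 cap, 2 activator and 6 Ube2 probes were detected, and on 0 arrays 8, 19, 3 and 20.

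Several genes without which no proteasome is complete had no tested probe. Among them were Psma1, Psma4 and Psma6 of the alpha ring, the catalytic subunits Psmb5 and Psmb6, the ATPases Psmc1, Psmc5 and Psmc6, the scaffold subunits Psmd1 and Psmd2, and Psmd14, the deubiquitinase of the cap. The activators Psme3 and Psme4 and the Ube2 genes Ube2d3, Ube2k, Ube2r2 and Ube2s were likewise not tested. A probe that is not detected gives only a bound, and for these genes the array holds no measurement of the response to hyaluronan. The other untested genes were Psmb9, Psmd5, Psmd6, Psmd7, Psmd9, Psmd11, Ube2a, Ube2g1, Ube2j1, Ube2q1, Ube2q2, Ube2t, Ube2u and Ube2z.

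**Figure D1:**
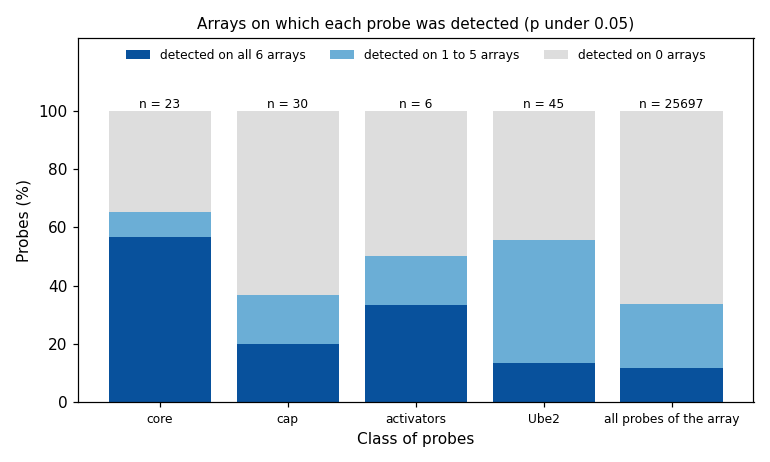
Share of probes (%, vertical axis) in each class by the number of arrays on which they were detected with p under 0.05, with the number of probes above each bar. Detection on all 6 arrays was reached by 13 of 23 core probes, 6 of 30 cap probes and 6 of 45 Ube2 probes.

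With o-HA no member probe passed the threshold of an adjusted p of 0.05 in limma, and the lowest adjusted p was 1. None of the 6194 tested probes of the array passed either (0%). At an unadjusted p under 0.05 the counts were 0 of 46 members and 1.26% of all probes. The members' log2 differences from untreated cells ran between -0.45 and 0.61. Both o-HA arrays lay above both untreated arrays for 13 member probes, 28.3% against 21.7% of all probes, and below them for 8, 17.4% against 22% of all probes.

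The highest o-HA differences in the core were those of alpha subunits, which form its outer rings and gate. Psma2 had log2 intensities of 5.67 and 6.04 on the o-HA arrays, against 5.39 and 5.10 in untreated cells (difference 0.61, SE 0.78, adjusted p = 1). Psma7, bound by 2 probes, was at 9.92 and 9.72 with o-HA by the brighter probe, against 9.45 and 9.37 in untreated cells (difference 0.40, SE 0.28). The other Psma7 probe gave 9.33 and 9.29 with o-HA, against 8.88 and 8.72 in untreated cells (difference 0.51, SE 0.25, 95% interval -0.11 to 1.12, adjusted p = 1). For these 3 probes both o-HA arrays were above both untreated arrays. All 5 tested alpha ring probes lay above untreated cells (median 0.40), with Psma3 at 0.18 and Psma5 at 0.13.

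Beta ring and cap probes lay on both sides of untreated cells with o-HA. Psmb4, a structural beta subunit, differed by 0.32 (SE 0.28), and Psmb2, another, differed by 0.28 (SE 0.25) with its dimmer probe and by -0.08 (SE 0.20) with its brighter one. Among cap genes, Psmd8, a non-ATPase subunit, was at 7.26 and 7.04 with o-HA, against 6.59 and 6.68 in untreated cells (difference 0.51, SE 0.28, adjusted p = 1). Psmd13, another subunit of the same part of the cap, differed by 0.39 (SE 0.46), and Psmc4, an ATPase, by 0.40 (SE 0.61). Psmd10, an assembly chaperone of the cap, differed by 0.21 (SE 0.24), though this probe was detected on 1 o-HA array and 0 untreated arrays. Psmd12 was detected on 0 o-HA arrays and on both untreated arrays, so it was at least 1.10-fold lower with o-HA (adjusted p = 1), and it entered the test only through untreated cells. The activators Psme1 and Psme2 had differences of 0.00 (SE 0.32) and 0.16 (SE 0.32), and the other Psme1 probe 0.13 (SE 0.44).

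Ube2e2, an E2 of the Ube2e family, had the highest o-HA value of its class. It was at 6.90 and 7.15 with o-HA, against 6.51 and 6.58 in untreated cells (difference 0.48, SE 0.23, 95% interval -0.08 to 1.04, adjusted p = 1). Both o-HA arrays were above both untreated arrays. Its relatives lay elsewhere, with Ube2e1 at -0.20 (SE 0.21) and Ube2e3 at 0.01 (SE 0.22). Ube2g2, which acts in the disposal of proteins from the endoplasmic reticulum, was detected on both untreated arrays and 0 o-HA arrays and was at least 1.19-fold lower with o-HA (adjusted p = 1), but it too was tested only through untreated cells. Ube2dnl2 differed by -0.25 (SE 0.26). Ube2n, which builds a non-degradative chain type, differed by 0.21 (SE 0.27), and Ube2l6, which conjugates the interferon-induced modifier Isg15, by -0.05 (SE 0.23).

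By class the o-HA differences had a median of 0.18 over 15 core probes (12 above 0), 0.21 over 9 cap probes (6 above 0), 0.13 over 3 activator probes (2 above 0) and -0.07 over 19 Ube2 probes (6 above 0), beside 0.00 over all 6194 probes. These medians describe these 4 arrays and cover probes detected on at least 2 of all 6, not always in both groups. The cap and activator medians are the values of Psmd10 (ILMN_2694080) and the second Psme1 probe, each detected on 0 untreated arrays. Over probes detected on all 6 arrays the medians were 0.28 (core), 0.31 (cap), 0.08 (activators) and -0.04 (Ube2). Without normalization between arrays the medians over all tested probes of each class were 0.17, 0.23, 0.12 and -0.09. Leaving out single arrays gave 0.08 to 0.33 for the core, 0.07 to 0.21 for the cap, -0.07 to 0.28 for the activators and -0.08 to 0.00 for Ube2, so the sign of the activator median rests on untreated replicate 2. The fit without n-HA replicate 1, which shares its estimate of spread with o-HA, gave 9 members at an unadjusted p under 0.05, 20.9% of 43, against 14.1% of all probes. Of these 7 were higher, 16.3% against 7.36% of all probes, and 2 were lower, 4.65% against 6.74%. No member passed the adjusted threshold there, and 0.407% of all probes did. The lowest adjusted limma p among members there was 0.166, for Psma2.

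**Figure D2:**
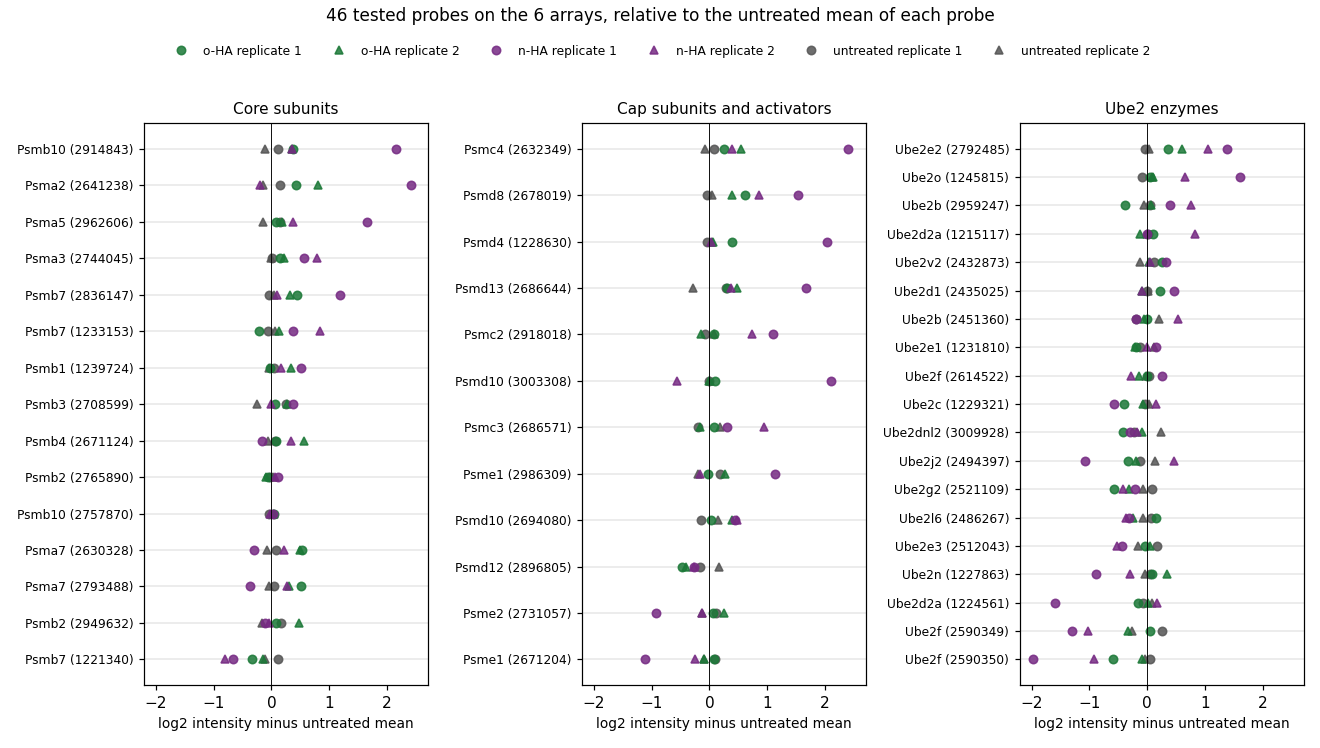
Log2 intensity of the 46 tested member probes on each of the 6 arrays, minus the mean of the untreated arrays for that probe (horizontal axis, log2), in panels for core, cap with activators, and Ube2 enzymes (colour, group; circle, replicate 1; triangle, replicate 2). The o-HA points stay within 0.80 of the untreated mean, while those of n-HA replicate 1 reach 2.40 for Psma2 and -1.98 for Ube2f.

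With n-HA the differences were wider, and again no member probe passed the adjusted threshold in limma. The lowest adjusted p was 0.147, for Ube2e2, and 0% of the 6194 probes of the array passed. At an unadjusted p under 0.05 there were 8 member probes, 17.4% of 46, against 21.8% of all probes, so members were called no more often than the array at large. Of these, 5 were higher with n-HA (Psma3, Psmc2, Psmd8, Ube2e2 and Ube2o), 10.9% against 9.32% of all probes. The remaining 3 were lower (1 probe of Psmb7 and 2 of Ube2f), 6.52% against 12.5% of all probes. Both n-HA arrays lay above both untreated arrays for 16 member probes, 34.8% against 23.8% of all probes, made up of 7 of 15 core, 6 of 9 cap and 3 of 19 Ube2 probes. They lay below for 9, 19.6% against 30.5% of all probes, made up of 1 core, 1 cap, 1 activator and 6 Ube2 probes.

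In the core, Psma3 was the alpha subunit whose n-HA arrays lay closest together. It was at 5.36 and 5.57 with n-HA, against 4.80 and 4.78 in untreated cells (difference 0.68, SE 0.21, adjusted p = 0.176). The probe is dim, and before correction and normalization its bead intensities were 80.2 and 77.9 with n-HA, against 75.7 and 72.0 in untreated cells, with bead standard errors between 2.92 and 4.13. The unnormalized levels of the groups thus differed by little more than the error of a single reading.

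Psma2 and Psma5, other alpha subunits, were far higher on n-HA replicate 1 than on replicate 2. Psma2 was at 7.65 and 5.05 with n-HA, against 5.39 and 5.10 in untreated cells (difference 1.10, SE 0.78, adjusted p = 0.413). Psma5 was at 6.25 and 4.98 with n-HA, against 4.75 and 4.45 in untreated cells (difference 1.01, SE 0.42, adjusted p = 0.232). For Psma2 the second n-HA array lay below both untreated arrays, and without replicate 1 its difference was -0.21, while that of Psma5 was 0.39. The Psma7 probes, high with o-HA, had n-HA differences of -0.05 (SE 0.28) and -0.05 (SE 0.25). Without normalization between arrays these were -0.91 and -0.96, beside a median of -0.35 over all probes. Bead intensities of the brighter Psma7 probe were 453.1 and 478.6 with n-HA, against 983.5 and 708.4 in untreated cells.

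Psmb7, the catalytic beta subunit with trypsin-like activity and the only constitutive cutting subunit with a tested probe, gave opposite readings from its 3 probes. By ILMN_1221340 it was at 4.63 and 4.49 with n-HA, against 5.40 and 5.18 in untreated cells (adjusted p = 0.176), and since 0 n-HA arrays detected it, the level was at least 1.37-fold lower with n-HA. By ILMN_1233153 it was at 5.85 and 6.31 with n-HA, against 5.41 and 5.52 in untreated cells (difference 0.61, SE 0.26, adjusted p = 0.234). By ILMN_2836147 it was at 7.41 and 6.32 with n-HA, against 6.19 and 6.26 in untreated cells (difference 0.64, SE 0.37, adjusted p = 0.331). For each probe the groups did not overlap, so no direction can be given for the gene. The opposite signs depend on the scaling, since without normalization between arrays the 3 differences were -0.93, -0.13 and -0.24, with the bead intensities of ILMN_1233153 and ILMN_2836147 overlapping between the groups. Psmb10, the inducible subunit that takes the place of Psmb7, also divided by probe, with differences of 1.25 (SE 0.55) and 0.00 (SE 0.20). The higher value, from ILMN_2914843, came mostly from n-HA replicate 1 and was 0.35 without it. Bead intensities of that probe were 577.0 and 144.7 with n-HA, against 280.4 and 183.5 in untreated cells. The structural beta subunits Psmb1, Psmb2, Psmb3 and Psmb4 had differences between -0.07 and 0.34.

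In the cap, all 3 tested probes of the ATPases that unfold substrates lay above untreated cells. Psmc2 was at 6.68 and 6.33 with n-HA, against 5.52 and 5.66 in untreated cells (difference 0.92, SE 0.23, 95% interval 0.35 to 1.49, adjusted p = 0.175). Psmc3 was at 5.35 and 5.99 with n-HA, against 4.86 and 5.23 in untreated cells (difference 0.63, SE 0.30, adjusted p = 0.264). Psmc4 was at 9.28 and 7.27 with n-HA, against 6.96 and 6.81 in untreated cells (difference 1.39, SE 0.61, adjusted p = 0.243). In these 3 genes both n-HA arrays were above both untreated arrays after normalization. Without normalization between arrays the differences were 0.11 for Psmc2, 0.10 for Psmc3 and 0.52 for Psmc4. The bead intensities of Psmc2 overlapped before normalization, at 118.7 and 91.5 with n-HA and 105.3 and 93.6 in untreated cells. So did those of Psmc3, at 80.1 and 84.3 with n-HA and 77.5 and 81.7 in untreated cells. Those of Psmc4 were 545.8 and 127.0 with n-HA, against 223.0 and 157.0 in untreated cells, so replicate 2 was below both untreated arrays.

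The non-ATPase subunits of the cap were uneven. Psmd8 was at 8.17 and 7.50 with n-HA, against 6.59 and 6.68 in untreated cells (difference 1.20, SE 0.28, 95% interval 0.51 to 1.89, adjusted p = 0.165). It was above untreated cells on both n-HA arrays and, as given above, on both o-HA arrays, but its difference with n-HA was 0.28 without normalization between arrays. Psmd13 was at 11.04 and 9.73 with n-HA, against 9.65 and 9.07 in untreated cells (difference 1.02, SE 0.46, adjusted p = 0.246). Psmd4, a ubiquitin receptor of the cap, was at 7.79 and 5.78 with n-HA, against 5.70 and 5.79 in untreated cells (difference 1.03, SE 0.61, adjusted p = 0.341). Psmd4 was high on n-HA replicate 1 alone. Psmd12, detected on 0 n-HA arrays, was at least 1.02-fold lower by its group means (adjusted p = 0.487). It too entered the test only through untreated cells. Psmd10, an assembly chaperone of the cap, was measured by a pair of probes. By ILMN_2694080, detected on both n-HA arrays and 0 untreated arrays, Psmd10 was at least 1.10-fold higher with n-HA (adjusted p = 0.298), but this probe was tested only through the hyaluronan groups. By ILMN_3003308 it was at 7.31 and 4.66 with n-HA, against 5.21 and 5.22 in untreated cells (difference 0.77, SE 0.78), and without n-HA replicate 1 the difference turned to -0.58 (adjusted p = 0.0690).

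The sequences around the start sites of Psma3, Psmc2 and Psmd8 are shown because these were the proteasome genes higher on both n-HA arrays at an unadjusted p under 0.05. Each runs 5′ to 3′ from 250 bases before to 50 bases after a RefSeq transcript start in the mouse build GRCm38.p6. Capitals mark CCAAT on either strand (written ATTGG where it lies on the other), the box bound by NF-Y, and TGACNNNGC or TGAGNNNGC, the core of the antioxidant response element, to which NRF1 and NRF2 bind in proteasome genes.
Psma3 promoter, chr12:70974373-70974672, plus strand: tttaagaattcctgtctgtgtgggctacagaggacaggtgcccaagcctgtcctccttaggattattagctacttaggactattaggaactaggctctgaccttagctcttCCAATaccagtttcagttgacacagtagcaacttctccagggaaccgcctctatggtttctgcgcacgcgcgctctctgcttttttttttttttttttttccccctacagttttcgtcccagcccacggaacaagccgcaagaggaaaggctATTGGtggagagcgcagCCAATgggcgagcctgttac
Psmc2 promoter 1, chr5:21785025-21785324, plus strand: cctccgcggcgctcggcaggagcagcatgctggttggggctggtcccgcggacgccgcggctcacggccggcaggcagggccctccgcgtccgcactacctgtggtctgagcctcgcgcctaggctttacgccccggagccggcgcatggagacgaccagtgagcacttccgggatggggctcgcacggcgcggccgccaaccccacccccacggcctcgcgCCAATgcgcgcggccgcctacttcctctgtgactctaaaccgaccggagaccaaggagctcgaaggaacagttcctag
Psmc2 promoter 2, chr5:21786497-21786796, plus strand: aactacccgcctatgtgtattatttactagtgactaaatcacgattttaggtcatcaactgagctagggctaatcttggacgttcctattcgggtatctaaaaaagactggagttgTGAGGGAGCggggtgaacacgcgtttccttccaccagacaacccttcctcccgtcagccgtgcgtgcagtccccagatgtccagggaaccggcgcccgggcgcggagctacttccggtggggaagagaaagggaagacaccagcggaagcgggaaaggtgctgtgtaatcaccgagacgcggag
Psmd8 promoter, chr7:29180624-29180923, minus strand: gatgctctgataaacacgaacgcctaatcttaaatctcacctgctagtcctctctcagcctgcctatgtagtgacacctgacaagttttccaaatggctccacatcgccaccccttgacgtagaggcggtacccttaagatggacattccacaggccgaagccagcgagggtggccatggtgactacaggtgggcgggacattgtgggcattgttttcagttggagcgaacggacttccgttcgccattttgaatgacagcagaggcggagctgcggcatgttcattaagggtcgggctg
Psma3 held 3 CCAAT matches, at -139, 13 and 30 from the start. Psmc2 held 1 CCAAT at -28 in its first promoter and 1 TGAGNNNGC at -134 in its second, and the Psmd8 window held none of these motifs. Among 37 promoters of proteasome genes 43.2% held TGACNNNGC or TGAGNNNGC, beside 30% of 30 Ube2 promoters and 27.8% of all 32851 promoters. CCAAT was in 35.1%, 23.3% and 37.4% of them. RefSeq promoters were matched for 58 of the 68 genes, and a match is a run of letters and not a measured site.

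**Figure D3:**
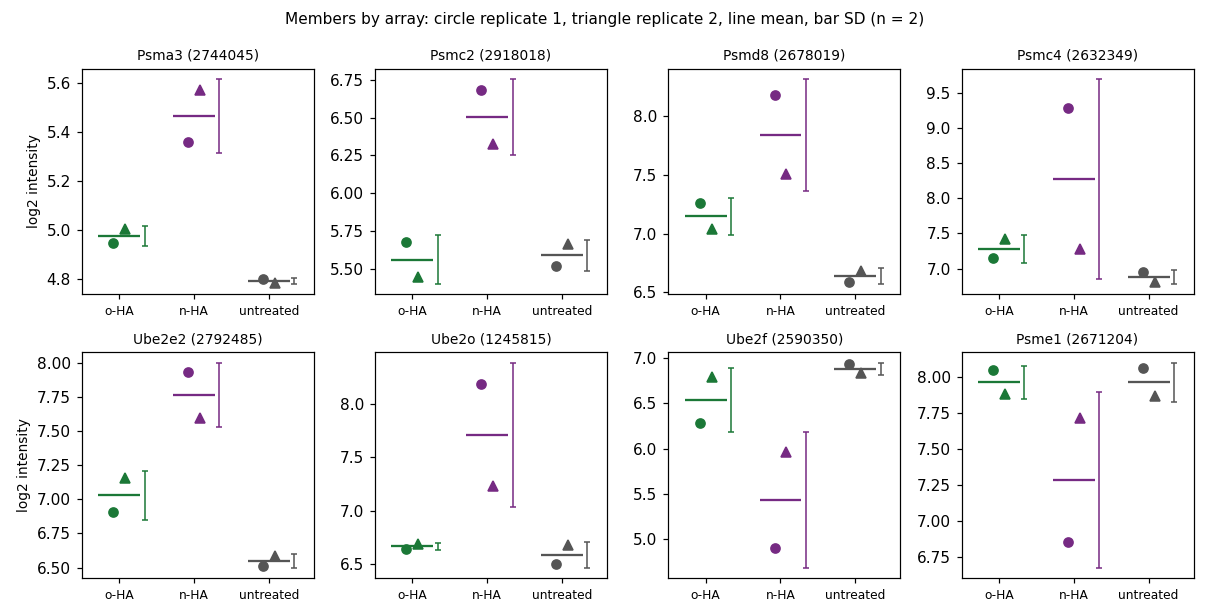
Log2 intensity (vertical axis, scaled to each panel) of 8 member probes in o-HA, n-HA and untreated cells (circle, replicate 1; triangle, replicate 2; line, mean; bar, SD of 2 arrays). Both n-HA arrays lie above the untreated arrays for Psma3, Psmc2, Psmd8, Psmc4, Ube2e2 and Ube2o and below them for Ube2f and Psme1, and the n-HA replicates of Psmc4 are far apart at 9.28 and 7.27.

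The activators Psme1 and Psme2, which together form an interferon-inducible ring on the core and whose genes have 1 other protein-coding gene between them, had lower values with n-HA on their bright probes. Psme1 was at 6.86 and 7.71 with n-HA, against 8.06 and 7.87 in untreated cells (difference -0.68, SE 0.32, adjusted p = 0.265). Psme2 was at 5.95 and 6.75 with n-HA, against 6.99 and 6.75 in untreated cells (difference -0.52, SE 0.32, adjusted p = 0.347). On the normalized scale the low values came mostly from replicate 1. Replicate 2 differed from the untreated mean by -0.25 for Psme1 and by -0.12 for Psme2. Before normalization the bead intensities of both n-HA arrays were below those of both untreated arrays. They were 128.6 and 154.9 against 424.3 and 281.5 for Psme1, and 91.5 and 105.7 against 227.5 and 152.3 for Psme2. The second Psme1 probe, detected on 1 n-HA array and 0 untreated arrays, differed by 0.49 (SE 0.44). Without normalization between arrays the bright Psme1 and Psme2 probes differed by -1.65 (adjusted p = 0.0153) and -1.41 (adjusted p = 0.0255), where the median of all probes was -0.35. In that setting 6 member probes passed the adjusted threshold and all were lower (Psme1, Psme2, Psma7, Ube2d2a and 2 of Ube2f), 13% against 23.8% of all probes.

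Among the Ube2 enzymes, Ube2e2 had the lowest p of all members with n-HA. It was at 7.93 and 7.60 with n-HA, against 6.51 and 6.58 in untreated cells (7.76 ± 0.24 and 6.55 ± 0.05, SD, n = 2 each). The difference was 1.21 (SE 0.23, 95% interval 0.65 to 1.78, adjusted p = 0.147). Both n-HA arrays were higher by more than the spread within either group, although the bead intensities before normalization were 230.0 and 145.6 with n-HA and 176.3 and 139.7 in untreated cells, and the difference without normalization was 0.29. Ube2e1, its neighbour on the chromosome with 0 protein-coding genes between them, differed by 0.07 (SE 0.21), and Ube2e3, detected on 0 n-HA arrays, was at least 1.06-fold lower (adjusted p = 0.257).

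Ube2o and Ube2f lay on opposite sides of untreated cells. Ube2o, a large enzyme that combines E2 and E3 activity, was at 8.19 and 7.23 with n-HA, against 6.50 and 6.67 in untreated cells (difference 1.12, SE 0.34, adjusted p = 0.176). Its difference was 0.23 without normalization between arrays, where the bead intensities were 269.1 and 125.4 with n-HA, against 175.5 and 145.7 in untreated cells. Ube2f, which conjugates Nedd8 in place of ubiquitin, was at 4.90 and 5.97 with n-HA by ILMN_2590350, against 6.93 and 6.84 in untreated cells (difference -1.45, SE 0.39, 95% interval -2.40 to -0.50, adjusted p = 0.176). By ILMN_2590349 it was at 4.37 and 4.65 with n-HA, against 5.93 and 5.42 in untreated cells, and it was at least 1.78-fold lower since 0 n-HA arrays detected it (adjusted p = 0.165). For Ube2f the groups were apart before normalization as well, with bead intensities of 73.6 and 83.8 with n-HA, against 220.5 and 158.6 in untreated cells, for ILMN_2590350. The third Ube2f probe, near the detection limit, differed by -0.02 (SE 0.25), so the lower level was seen with 2 of 3 tested probes.

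The remaining Ube2 enzymes had n-HA differences between -0.71 and 0.57. Ube2n was at 4.37 and 4.97 with n-HA, against 5.30 and 5.22 in untreated cells (difference -0.59, SE 0.27, adjusted p = 0.254), while Ube2v2, its cofactor in chain building, differed by 0.19 (SE 0.23). Ube2l6, detected on 0 n-HA arrays, differed by -0.34 (SE 0.23) and has no bound above 1. The Ube2d2a probes differed by -0.71 (SE 0.55) and 0.41 (SE 0.32), by 0.16 and 0.87 without n-HA replicate 1, and by -1.62 and -0.05 without normalization between arrays. Ube2b, a partner of the ligase Rad18 in DNA damage tolerance, differed by 0.57 (SE 0.26) and 0.17 (SE 0.31), and Ube2c, which works with the anaphase-promoting complex, by -0.21 (SE 0.30).

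**Figure D4:**
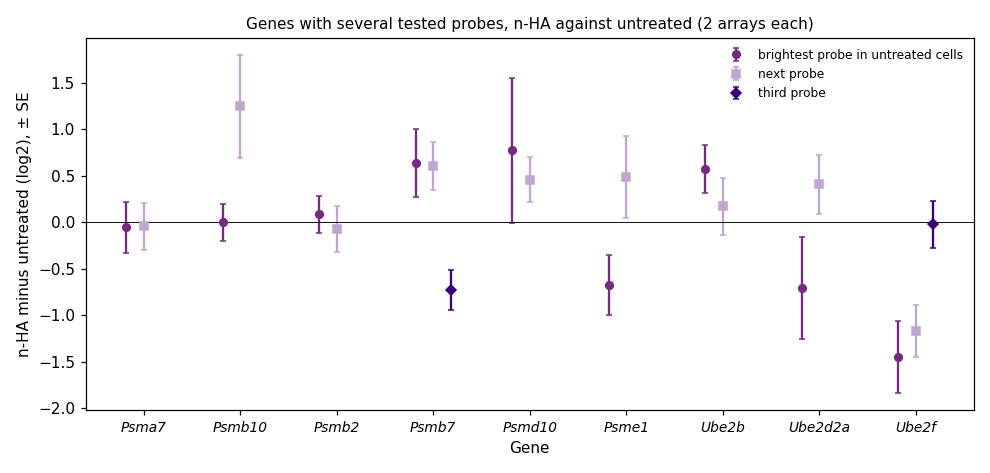
Difference of n-HA from untreated cells (vertical axis, log2, ± SE) for each tested probe of the 9 genes with several, ordered from the brightest probe in untreated cells to the dimmest. On the normalized scale of all 6 arrays, probes of Psma7 and Psmb2 lie near 0. Those of Psmb7, Psme1 and Ube2d2a fall on both sides of 0 on that scale.

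Across the 9 genes with several tested probes, agreement between probes varied. The Psma7 and Psmb2 probes differed from each other by less than their SE under n-HA. Psmb10, Psmb7, Psme1, Ube2d2a and Ube2f each had 1 probe at odds with another. Without n-HA replicate 1 the Psmd10 probes also divided, at 0.50 (ILMN_2694080) and -0.58 (ILMN_3003308). Of both Psme1 and Psmd10, 1 probe was detected on 0 untreated arrays. Which transcript each probe binds was not tested, and a gene named by 1 probe rests on that probe alone.

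By class the n-HA differences had a median of 0.17 over 15 core probes (10 above 0), 0.92 over 9 cap probes (8 above 0), -0.52 over 3 activator probes (1 above 0) and -0.21 over 19 Ube2 probes (8 above 0), beside -0.01 over all probes. The replicates gave unequal shares of the cap value, since its median was 1.53 above the untreated mean on n-HA replicate 1 and 0.39 on n-HA replicate 2. Without normalization between arrays, where the median of all probes was -0.35, the core median was -0.49 (4 of 15 above 0) and that of the cap was 0.28 (8 of 9 above 0). The sign of the core median therefore turns with the scaling, and that of the cap does not when both n-HA arrays are averaged. On n-HA replicate 2, the dimmer array, bead intensities of Psmc2, Psmc4, Psmd4, Psmd8, Psmd12, Psmd13 and Psmd10 (ILMN_3003308) were below both untreated arrays. Those of Psmc3 and Psmd10 (ILMN_2694080) were above both. The cap count includes the Psmd10 probe that untreated cells did not detect. The cap median was 1.03 over its 6 probes detected on all 6 arrays. It was -0.02 over all 30 cap probes when no detection filter was used, with most of them at background.

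**Figure D5:**
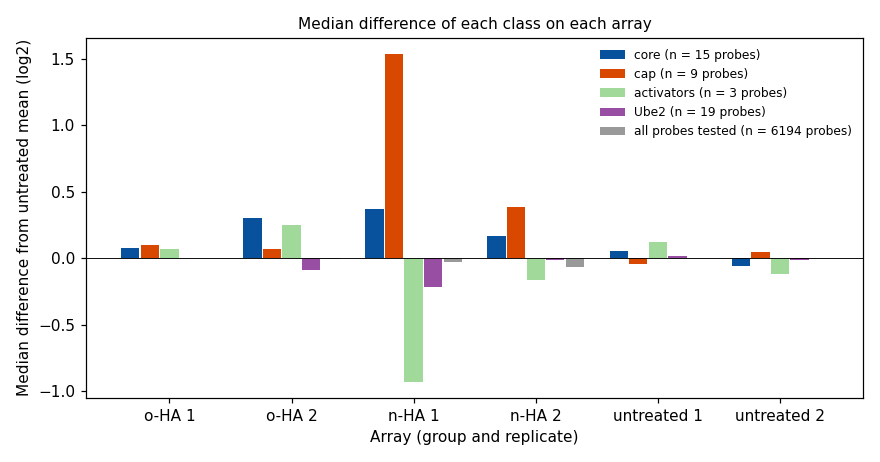
Median difference from the untreated mean (vertical axis, log2) over the tested probes of each class on each array, with all 6194 probes in grey. The cap reaches 1.53 on n-HA replicate 1 and 0.39 on replicate 2, and the core stays between 0.08 and 0.37 on the o-HA and n-HA arrays.

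Without n-HA replicate 1, 11 of 43 member probes passed the adjusted threshold with n-HA, 25.6% against 17.1% of all probes, where the lone n-HA array is assumed to vary like the other groups. Of these, 8 were higher, 18.6% against 7.36% of all probes, and 3 were lower, 6.98% against 9.77% of all probes. Higher were Psma3 (0.83, adjusted p = 0.0175), Psmb7 by ILMN_1233153 (0.86, adjusted p = 0.0197), Psmc2 (0.76, adjusted p = 0.0290), Psmc3 (0.99, adjusted p = 0.0126), Psmd8 (0.86, adjusted p = 0.0163), Ube2e2 (1.04, adjusted p = 0.00672), Ube2b by ILMN_2959247 (0.80, adjusted p = 0.0309) and Ube2d2a by ILMN_1215117 (0.87, adjusted p = 0.0158). Lower were Psmb7 by ILMN_1221340 (-0.84, adjusted p = 0.0200) and Ube2f by ILMN_2590349 (-1.08, adjusted p = 0.0127) and ILMN_2590350 (-0.92, adjusted p = 0.0188). The ATPase Psmc4 differed by 0.38 there. These values rest on the lone n-HA array and on normalization. Before it, the bead intensities of Psmc2 and Psmd8 on that array (91.5 and 139.5) were below both untreated arrays. Those of Ube2e2, Ube2d2a (ILMN_1215117) and Psmb7 (ILMN_1233153) lay between the untreated arrays. Those of Psma3, Psmc3 and Ube2b (ILMN_2959247) were above both, and those of the lower probes were below both. The 3 lower probes and Psma3, Psmc2, Psmd8 and Ube2e2 are 7 of the 8 probes with an unadjusted p under 0.05 on all arrays, and Ube2o was the exception (0.64, adjusted p = 0.0504). Without n-HA replicate 2 instead, 23 of 45 member probes passed, 51.1% against 54.1% of all probes.

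Genes that act before and after the members in the pathway were counted from 8 lists of 95 genes, of which 36 had a tested probe, with 39 probes in all. None of these probes passed the adjusted threshold in limma with either hyaluronan. At an unadjusted p under 0.05 there was 1 probe with o-HA, 2.56% against 1.26% of all probes, and there were 10 with n-HA, 25.6% against 21.8%. Of these 10, 4 were higher, 10.3% against 9.32% of all probes, and 6 were lower, 15.4% against 12.5%. The median difference with n-HA was -0.24. The 4 tested E1 genes, Nae1, Sae1, Atg7 and Uba7, serve ubiquitin-like proteins, while Uba6, an E1 for ubiquitin, was detected on 0 arrays. These 4 had a median of 0.65 with n-HA (4 above 0). Sae1, a subunit of the Sumo-activating enzyme, was highest among them (1.16, SE 0.63). It was at 10.03 and 8.01 with n-HA, against 8.06 and 7.64 in untreated cells, and Uba7 was at 6.81 and 5.68, against 5.43 and 5.45. Assembly, receptor and shuttle genes had a median of -0.43 over 7 probes, ligases -0.24 over 12, E2 enzymes of other names -0.40 over 2, and genes of the p97 segregase -0.14 over 2, and Fau, a ubiquitin-like precursor, differed by -0.13.

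Single genes of these lists lay as far from untreated cells as the members did. Pomp, a chaperone needed for core assembly, was at 8.39 and 7.04 with n-HA, against 6.54 and 6.39 in untreated cells (difference 1.25, SE 0.44, adjusted p = 0.193). Cbl, a ligase for activated receptors, was detected on 0 n-HA arrays and was at least 2.42-fold lower, with values of 4.45 and 4.39 against 6.14 and 6.10 in untreated cells (adjusted p = 0.138). Atxn3, a deubiquitinase, was at least 1.43-fold lower with n-HA (adjusted p = 0.159). Among 11 deubiquitinase probes 8 lay below untreated cells with n-HA (median -0.74), beside 3140 of all 6194 probes. Usp5, which recycles free chains, was at -1.12 (SE 0.28). On n-HA replicate 2, Atxn3, Otub1, Usp5 and Usp7 of these were below both untreated arrays. Uchl1, Usp22 and Usp9x lay between the untreated arrays there, and Usp28 above both. The ligase Mdm2 was the gene with an unadjusted p under 0.05 for both hyaluronans by ILMN_1250774, at 10.07 and 9.91 in o-HA cells, 10.58 and 9.80 in n-HA cells and 9.21 and 9.24 in untreated cells, while its other tested probe had a difference of -1.41 with n-HA (SE 0.76). Nfe2l1, Nfe2l2 and the other listed regulators of proteasome genes had no tested probe.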

How the data were processed

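RNA of 6 HL-1 samples was hybridised to an Illumina MouseRef-8 beadchip. The authors deposited bead intensity values per probe on a linear scale, before normalization, read with BeadStudio, and the submitters' processing notes give its version as 3.3. For every probe on every array the deposited table also holds a detection p-value. The authors' normalized intensity values (cubic spline, background subtracted, linear) served as an alternative. Probes were named from the platform annotation: 23978 of 25697 had 1 symbol and 1719 had none.

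Intensities were background-corrected with neqc of limma 3.58.1 in R 4.3.3, with negative controls taken to follow from those p-values, an offset of 16, quantile normalization and log2. The scale makes no probe's level comparable with another's. Probes detected (p under 0.05) on at least 2 of 6 arrays were fitted with a mean per group by lmFit and eBayes, with 3 residual degrees of freedom and a prior of 3.145. Two-sided p-values were adjusted by Benjamini-Hochberg over 6194 probes. Only the limma fit, without background correction or normalization, was tested on simulated data, in which a probe's spread was the same on all arrays. Where 0 arrays of a group detected a probe, a fold is a lower bound, set against the lowest detected log2 value per array. Such a bound compares means and makes no allowance for their spread. A depth is not defined for arrays, whose number limits the precision, and the median probe had 41 beads. Named by rule were, per class and comparison, the 4 probes of lowest p (2 for activators) and a panel of catalytic, receptor and E2 genes. The rule also took genes with several tested probes and, of each pathway list, up to 2 genes. Other members in the text, such as Psma2, Psmc3, Psmb1, Psmb3, Ube2c and Ube2v2, fell outside this rule. The members, lists and panel were chosen with earlier results of these data known. Alternatives were other background, offset, normalization and filter settings, leaving out each array, and a replicate block.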

Additional observations from a re-analysis of the deposited data

How the results depend on the processing

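Members past an adjusted p of 0.05 stayed at 0 with o-HA under every alternative run. With n-HA they were 0 under all but 3: 6 without normalization between arrays (all lower, 13% against 23.8% of all probes), and 11 and 23 without n-HA replicate 1 or 2, so leaving out single arrays gave 0 to 23. At an unadjusted p under 0.05, o-HA gave 1 probe with no background correction (2.17% against 1.66% of all probes), 1 with the authors' normalized values (2.17% against 1.02%), 5 with no detection filter (4.67% against 3.2%), and 0 to 9 when single arrays were left out (9 for each n-HA array, 14.1% of all probes in both). With n-HA this count, 8 in the report, was 14 without normalization (30.4% against 32.5% of all probes) and 14 with no filter (13.1% against 9.76%). It was 2 without untreated replicate 1 (4.65% against 6.67%) to 25 without n-HA replicate 2 (55.6% against 58.7%) when single arrays were left out.

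The class medians with n-HA depended on the settings. Without normalization they were -0.49 (core), 0.28 (cap), -1.41 (activators) and -0.35 (Ube2), beside -0.35 over all probes. With no filter they were -0.018 (cap), -0.043 (activators) and -0.026 (Ube2), as most added probes were at background. With no background correction they were 0.089, 0.52, -0.34 and -0.11, and with an offset of 50 they were 0.096, 0.61, -0.38 and -0.088, in the same order. The Ube2 median was 0.24 over probes detected on all 6 arrays. With o-HA the cap median was 0.083 with an offset of 50 and -0.006 with no filter. With n-HA, leaving out single arrays gave 0.11 to 0.39 (core), 0.38 to 1.55 (cap), -0.95 to -0.18 (activators) and -0.28 to -0.013 (Ube2), with the ends of the cap and activator ranges from leaving out n-HA replicates 1 and 2. The cause was not tested where none is named.

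The next counts cover the 34 member probes named by rule in each comparison, and leave out others in the text such as Psma2. With o-HA these probes were never past the threshold over 475 alternative values, and 12 of them had a change of sign in at least 1. With n-HA 36 of 481 values were past it (6 without normalization, 10 and 20 without n-HA replicates 1 and 2), and 13 probes had a change of sign. No source states whether the replicate numbers pair the samples, and 2 arrays a group cannot settle it. The correlation of replicate 1 deviations was -0.114 between o-HA and untreated, 0.153 between n-HA and untreated and -0.0449 between o-HA and n-HA. With the replicate block, 0 members passed the adjusted threshold, and 11 with n-HA had an unadjusted p under 0.05 (23.9% against 21.3% of all probes). With crossed pairing, added after seeing the data, these were 0 and 13 (28.3% against 22.3%). Signal over background limits what can be said: 46 of 107 member probes were bright enough to test, and each group had 2 arrays.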
